A study of Mus musculus with 19 samples.

Results

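The NRF2 antioxidant defence genes are the group of 10 genes followed here, taken by name: Nfe2l2, Keap1, Hmox1, Nqo1, Gclc, Gclm, Txnrd1, Srxn1, Sod1 and Sod2. They were found by gene identifier and mouse symbol among the 54232 genes counted in striatal RNA, and all 10 were among the 18521 genes that passed the filter on low counts. Striatum from 19 mice at 6 months of age was sequenced, on a C57/BL/6 background. The 7 WT mice carry no mutant HTT allele. The 4 KI-FL mice are HD140Q knock-in mice, in which the mouse Htt gene carries an expanded polyQ repeat and full-length mutant HTT is expressed at the endogenous level. In the 4 KI-96 and the 4 KI-571 mice the mutant allele was also cut by CRISPR/Cas9 in exon 2 or exon 13, which leaves an N-terminal fragment with the repeat. According to the study, mice with these truncations do not survive as homozygotes, so that KI-96 and KI-571 mice also carry a WT allele, and the labels do not give the zygosity of the KI-FL mice. Sex and the day of tissue collection are not in the labels. The question asked of these data is whether the defence against oxidants differs in RNA level between WT striatum and striatum with full-length or truncated mutant HTT.

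NRF2, the product of Nfe2l2, is a transcription factor that is held in the cytoplasm and handed to degradation by KEAP1 in resting cells. Oxidants and electrophiles modify cysteines of KEAP1, after which NRF2 collects in the nucleus, pairs with small MAF proteins and binds antioxidant response elements near its target genes. Because this switch acts mainly on the NRF2 protein, the RNA levels of its targets are usually read beside that of Nfe2l2 itself. In brain the response is known to be stronger in astrocytes than in neurons.

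None of the 10 genes differed between any pair of genotypes at an adjusted p under 0.05 in the quasi-likelihood test of edgeR, adjusted by Benjamini-Hochberg, which gave the p-values below unless DESeq2 is named. Keap1, the repressor of NRF2, came nearest, at 1.35-fold of the WT level in KI-FL mice, and each of the 4 KI-FL mice lay above each of the 7 WT mice. In 2.9% of all tested genes every KI-FL mouse was likewise above every WT mouse. Txnrd1, the cytosolic thioredoxin reductase, was 1.28-fold of WT in KI-FL mice and 1.22-fold in KI-571 mice, whereas Gclc, the catalytic subunit of glutathione synthesis, was 0.862-fold of WT in KI-96 mice and 0.893-fold in KI-571 mice. Keap1 in KI-FL mice passed with DESeq2 (adjusted p = 0.0280) and not with edgeR (adjusted p = 0.0882). Of all tested genes 2.75% passed with DESeq2 in that comparison. The adjusted p of Keap1 in edgeR was 0.244 without KI-FL replicate 4 and 0.525 with WT replicates 1 to 4 as the only WT mice.

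The upstream sequences of the genes whose results are described most closely are shown here. Nfe2l2 encodes NRF2 and Keap1 its repressor, and the other genes shown are read as reporters of NRF2. The letters of the response element motif can be seen where they occur close to the start. They are the 250 bases before the RefSeq start on GRCm38.p6, 5′ to 3′ on the strand of the gene. Capitals mark matches to TGACNNNGC, the core of the antioxidant response element, or to TGANTCAGC, the form bound by NRF2 with a MAF partner. Both motifs were searched on both strands, and a site can meet both.
Nfe2l2: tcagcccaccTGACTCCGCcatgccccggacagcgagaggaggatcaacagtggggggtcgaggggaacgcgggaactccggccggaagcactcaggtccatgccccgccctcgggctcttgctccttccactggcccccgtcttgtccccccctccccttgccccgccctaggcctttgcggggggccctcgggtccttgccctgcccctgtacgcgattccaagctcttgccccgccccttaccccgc
Keap1: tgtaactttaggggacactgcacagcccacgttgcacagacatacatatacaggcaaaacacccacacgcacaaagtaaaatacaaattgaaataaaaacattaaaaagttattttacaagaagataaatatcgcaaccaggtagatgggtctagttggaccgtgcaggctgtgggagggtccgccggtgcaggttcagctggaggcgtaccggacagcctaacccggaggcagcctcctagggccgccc
Gclm: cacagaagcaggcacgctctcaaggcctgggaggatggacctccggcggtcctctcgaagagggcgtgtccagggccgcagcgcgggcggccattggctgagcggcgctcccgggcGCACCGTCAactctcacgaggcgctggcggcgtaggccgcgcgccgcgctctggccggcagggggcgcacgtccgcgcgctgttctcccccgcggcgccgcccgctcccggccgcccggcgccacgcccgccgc
Txnrd1: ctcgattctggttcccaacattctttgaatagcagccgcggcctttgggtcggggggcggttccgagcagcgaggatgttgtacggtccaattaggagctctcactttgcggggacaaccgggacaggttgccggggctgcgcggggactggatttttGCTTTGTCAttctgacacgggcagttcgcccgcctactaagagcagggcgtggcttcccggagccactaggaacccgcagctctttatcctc
Srxn1: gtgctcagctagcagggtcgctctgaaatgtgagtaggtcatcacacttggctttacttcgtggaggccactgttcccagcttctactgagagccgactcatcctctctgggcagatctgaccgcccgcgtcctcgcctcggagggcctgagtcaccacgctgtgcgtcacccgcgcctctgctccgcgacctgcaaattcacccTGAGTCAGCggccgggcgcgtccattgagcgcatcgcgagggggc
RefSeq promoter entries were found for 8 of the 10 genes, not for Hmox1 and Gclc, and 5 of these 8 held a match. The match in Nfe2l2 was TGACTCCGC, from 240 to 232 bases before the start. In Gclm it was GCACCGTCA, from 134 to 126 bases before the start and on the other strand. Srxn1 held TGAGTCAGC, from 45 to 37 bases before the start. Txnrd1, which has several annotated starts, held GCTTTGTCA on the other strand from 92 to 84 bases before the start shown, while the windows of its other 2 starts held no match. Sod1 held GCGTGGTCA on the other strand from 56 to 48 bases before its start, and the windows of Keap1, Nqo1 and Sod2 held no match. Counted by window, 5 of the 10 windows of these genes held a match. Among all 32851 promoter windows of this length, 10.2% held TGACNNNGC and 1.02% held TGANTCAGC, and a match is a run of letters in the window, not a measured binding site.

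The depth was 12669809 to 26388542 gene counts a mouse (median 18202412). WT replicates 5 to 7 had 23457270, 26388542 and 25445799 gene counts, against at most 18945441 in the other WT mice. Values are given here as CPM, the counts scaled to library size with edgeR's TMM factors, and no pair of replicates agreed within counting error. The 12 markers of striatal projection neurons summed to between 6660 and 11036 CPM in every mouse, and all were detected. Several libraries stand apart. KI-96 replicate 3 had 24.2% of its reads outside genes, where the other 3 mice of that genotype had 11.8% to 12.7%. KI-FL replicate 4 had 3186 of the tested genes at 0 counts, against at most 222 in any other mouse. The 9 markers of choroid plexus summed to 6729 and 7640 CPM in KI-571 replicates 2 and 4 and to 4385 CPM in KI-FL replicate 1, against 343 to 913 CPM in WT mice. Xist was at 886 to 1615 CPM in all 4 KI-96 mice, in WT replicate 1 and in KI-FL replicate 2. It was at 0.267 to 5.05 CPM in the other 13 mice, so that every KI-96 mouse shares high Xist with only 1 WT and 1 KI-FL mouse. Of 5 sex markers, edgeR called 4 lower in KI-96 than in WT mice, and 3 were at 0 counts in every KI-96 mouse. Sex and genotype therefore largely coincide in comparisons of KI-96 mice. Their parts in the KI-96 values below cannot be told apart. A fit with Xist as a further term was made beside the main values. In whole striatum, fewer cells of a type and less RNA per cell cannot be told apart.

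The level of each gene in WT mice was compared as CPM per kb of its merged exons, which include all annotated isoforms, so that a gene with long rare isoforms is placed too low. Sod1 was highest, at 43.9 ± 3.35 CPM per kb (SD, n = 7), above 94.9% of the tested genes. Srxn1 followed at 28.9 ± 1.80 CPM per kb (SD, n = 7) and Gclc at 21.7 ± 1.71 CPM per kb (SD, n = 7). The ranges of the WT mice did not overlap between Sod1 and Srxn1 or between Srxn1 and Gclc. Sod2, Keap1, Txnrd1 and Gclm came next, at 14.7 ± 2.02, 12.1 ± 1.17, 11.2 ± 1.58 and 9.67 ± 0.977 CPM per kb (SD, n = 7), each with a range that overlapped that of the next. Nfe2l2 was lower than all of these, at 4.396 ± 0.808 CPM per kb (SD, n = 7), and its range did not overlap that of Gclm. Nqo1 was at 3.25 ± 0.623 and Hmox1 at 2.06 ± 0.353 CPM per kb (SD, n = 7), below the median of the tested genes, with ranges that overlapped between neighbours. These enzymes, common read-outs of NRF2 in other tissues, were the lowest of the group in WT striatum.

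**Figure D1:**
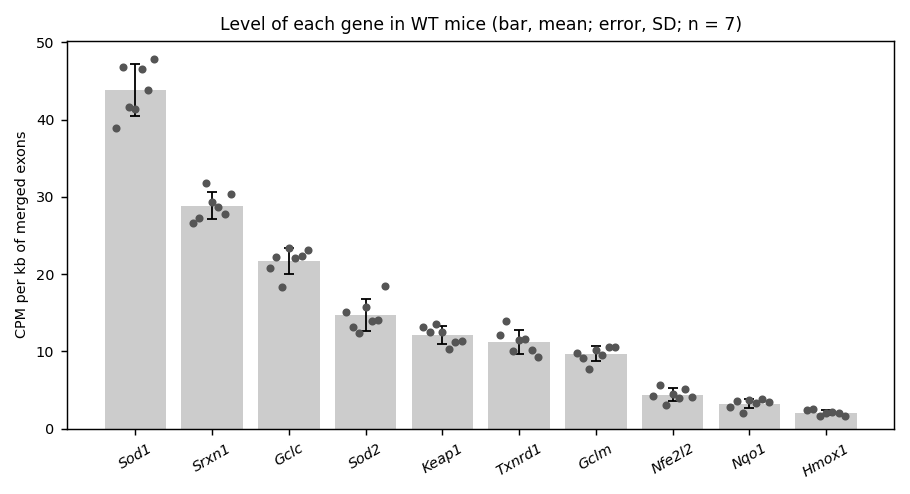
The level of each gene in WT striatum is plotted in CPM per kb of merged exons. Grey bars show the mean, error bars the SD and points the 7 WT mice, from Sod1 at 43.9 down to Hmox1 at 2.06 CPM per kb.

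Nfe2l2 (chromosome 2 of GRCm38, 75675513 to 75704641, 6 merged exons on the minus strand) encodes NRF2. It was at 11.9 to 21.3 CPM in WT mice with a median of 16.1. It ranged from 11.3 to 17.9 CPM in KI-96 mice, from 15.7 to 24.0 CPM in KI-571 mice and from 10.9 to 20.4 CPM in KI-FL mice. All 4 genotypes overlapped, with the lowest value in KI-FL replicate 3 and the highest in KI-571 replicate 4. The log2 fold change against WT was -0.16 (SE 0.18, adjusted p = 0.878) in KI-96, 0.21 (SE 0.18, adjusted p = 0.895) in KI-571 and 0.057 (SE 0.18, adjusted p = 0.890) in KI-FL mice.

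Keap1 (chromosome 9, 21229730 to 21239361, minus strand) encodes the adaptor that brings NRF2 to the CUL3 ubiquitin ligase. In WT mice it was at 48.4 to 63.6 CPM with a median of 58.8. The KI-FL mice had 68.2, 66.8, 78.2 and 92.3 CPM in replicates 1 to 4. These 4 values were above every WT value, and 2.9% of all tested genes likewise lay higher in every KI-FL mouse than in every WT mouse. The highest value was that of KI-FL replicate 4, the library with 3186 genes at 0 counts. The log2 fold change was 0.43 (SE 0.11, unadjusted p = 0.000910, adjusted p = 0.0882 from edgeR), and it was 0.33 with an adjusted p of 0.244 without that mouse. With the 4 WT replicates 1 to 4 as the only WT mice it was 0.32 (adjusted p = 0.525). WT replicates 5 to 7 held the 3 lowest values of Keap1 among all mice.

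In KI-96 mice Keap1 was at 78.6, 66.5, 60.3 and 57.0 CPM, and in KI-571 mice at 73.7, 60.2, 58.2 and 53.3 CPM. Both groups overlapped WT, with 2 of 4 KI-96 mice and 1 of 4 KI-571 mice above all WT mice. The log2 fold change against WT was 0.21 (SE 0.11, adjusted p = 0.703) in KI-96 and 0.11 (SE 0.11, adjusted p = 0.932) in KI-571 mice. KI-571 mice had less Keap1 than KI-FL mice by a log2 difference of -0.32 (SE 0.13, unadjusted p = 0.0214, adjusted p = 0.477), with 3 of 4 KI-571 mice below every KI-FL mouse. Gm16754, a gene on the other strand that overlaps Keap1, had 0 to 38 counts per mouse, and the strand setting of the counting is not known.

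**Figure D2:**
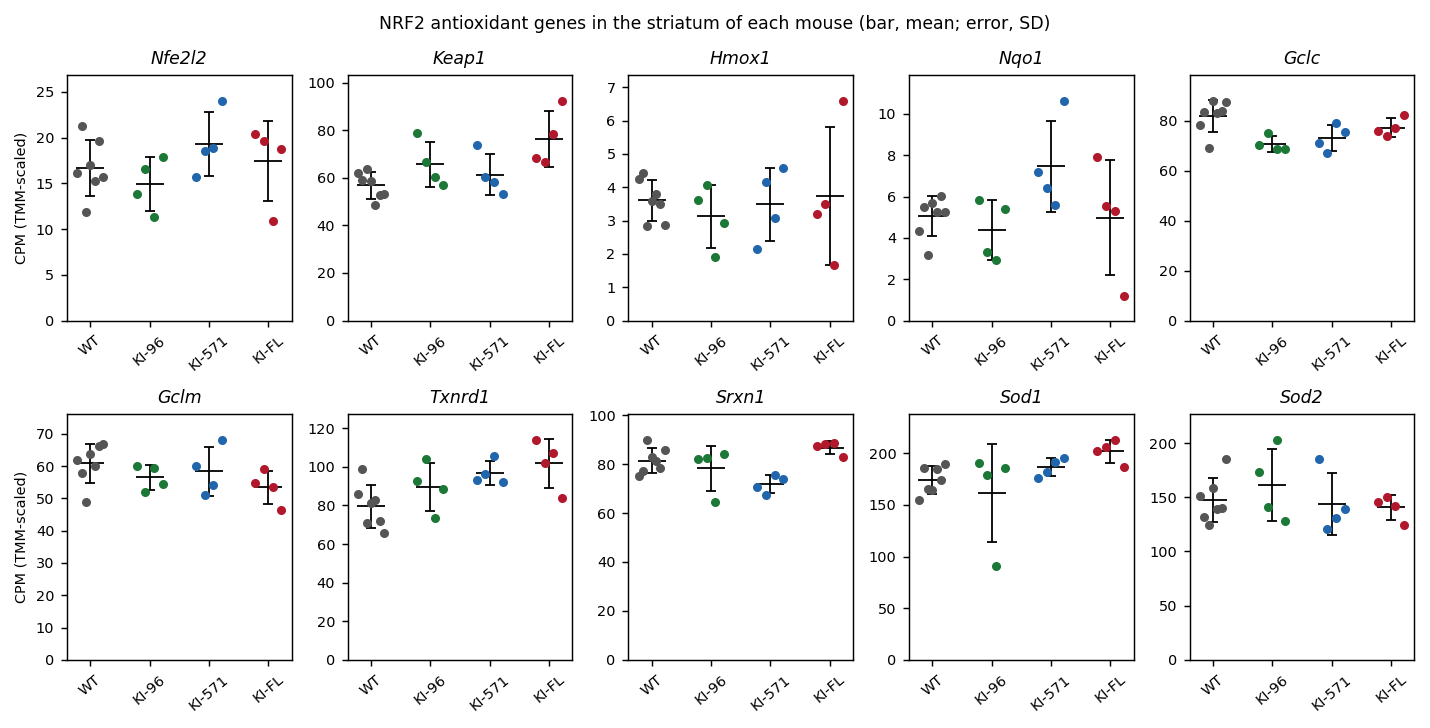
CPM of each of the 10 genes is plotted for every mouse, with axes that start at 0, points for mice in replicate order, a bar for the mean and error bars for the SD (7 WT mice, 4 mice in each KI genotype). Keap1 in KI-FL mice, at 66.8 to 92.3 CPM, lies above all WT mice, as do 2.9% of all tested genes. Sod1 and Srxn1 in KI-96 replicate 3 lie apart from the other KI-96 mice.

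Gclc and Gclm encode the catalytic and the modifier subunit of glutamate-cysteine ligase, the first and rate-limiting enzyme of glutathione synthesis. Gclc (chromosome 9, 77754535 to 77794485, plus strand) was at 69.1 to 87.9 CPM in WT mice with a median of 83.5. In KI-96 mice it was at 70.3, 75.1, 68.5 and 68.5 CPM. All 4 KI-96 mice were below the WT median and 2 of them below every WT mouse, while WT replicate 3 lay among them at 69.1 CPM. The KI-571 mice had 70.9, 67.1, 78.9 and 75.6 CPM and the KI-FL mice 75.7, 73.7, 77.1 and 82.2 CPM, so that none of the 12 KI mice exceeded the WT median. The fitted log2 fold change was -0.21 (SE 0.077, unadjusted p = 0.0114, adjusted p = 0.623) in KI-96, -0.16 (SE 0.077, unadjusted p = 0.0464, adjusted p = 0.634) in KI-571 and -0.085 (SE 0.077, adjusted p = 0.593) in KI-FL mice. For the mean of the 3 KI genotypes it was -0.15 (SE 0.058, unadjusted p = 0.0146, adjusted p = 0.267). When Xist (log2 CPM) was added to the fit, the value in KI-96 mice was -0.13, with an unadjusted p of 0.268. When only WT replicates 1 to 4 were kept, the KI-96 value was -0.18 (unadjusted p = 0.0765). The KI-571 value was then -0.12 (unadjusted p = 0.206).

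Gclm (chromosome 3, 122245557 to 122270732, plus strand) was at 48.9 to 66.8 CPM in WT mice with a median of 62.0. It ranged from 52.1 to 60.1 CPM in KI-96, from 51.1 to 68.0 CPM in KI-571 and from 46.5 to 59.0 CPM in KI-FL mice, and all genotypes overlapped. The lowest of the 19 mice was KI-FL replicate 4 at 46.5 CPM. The log2 fold change was -0.11 (SE 0.098, adjusted p = 0.846) in KI-96, -0.061 (SE 0.098, adjusted p = 0.966) in KI-571 and -0.19 (SE 0.099, adjusted p = 0.342) in KI-FL mice. Gm17494, which overlaps Gclm on the other strand, had 95 to 256 counts.

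Txnrd1 and Srxn1 act on protein thiols. Txnrd1 (chromosome 10, 82833951 to 82897712, plus strand, 8 transcripts counted as a single gene) encodes the selenoenzyme that reduces thioredoxin. It was at 65.7 to 99.0 CPM in WT mice with a median of 81.2. The KI-FL mice had 114, 102, 107 and 84.0 CPM, and the KI-571 mice 92.9, 96.1, 106 and 92.1 CPM. In KI-FL mice 3 of 4 lay above every WT mouse and replicate 4 lay among them, and every KI-571 mouse was above 6 of the 7 WT mice, with replicate 3 also above WT replicate 2 at 99.0 CPM. The KI-96 mice spread over 92.4, 104, 73.6 and 88.4 CPM. The fitted log2 fold change was 0.35 (SE 0.11, unadjusted p = 0.00405, adjusted p = 0.132) in KI-FL, 0.28 (SE 0.11, unadjusted p = 0.0185, adjusted p = 0.497) in KI-571 and 0.17 (SE 0.11, adjusted p = 0.761) in KI-96 mice. For all KI mice it was 0.27 (SE 0.085, adjusted p = 0.187). Without KI-96 replicate 3 and KI-FL replicate 4, a choice made after these libraries were seen to stand apart, the value for all KI mice was 0.32 and passed edgeR's adjusted threshold (adjusted p = 0.0406). In that fit 277 of 18770 tested genes passed for all KI mice, against 10 of 18521 in the main fit. With WT replicates 1 to 4 as the only WT mice the value was 0.18 (unadjusted p = 0.088). With Xist in the fit it was 0.27 (adjusted p = 0.505).

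Srxn1 (chromosome 2, 152105516 to 152111376, plus strand) encodes sulfiredoxin, which returns overoxidized peroxiredoxins to their active form. In WT mice it was at 75.2 to 89.8 CPM with a median of 81.1. The KI-571 mice had 70.5, 67.3, 75.6 and 74.0 CPM, and the KI-FL mice 87.2, 88.2, 88.7 and 82.8 CPM. Every KI-571 mouse was below every KI-FL mouse, and 2.04% of all tested genes were lower in the same way. The log2 difference of KI-571 from KI-FL mice was -0.27 (SE 0.090, unadjusted p = 0.00649, adjusted p = 0.385). Both groups overlapped WT, with log2 fold changes of -0.18 (SE 0.080, unadjusted p = 0.0346, adjusted p = 0.581) in KI-571 and 0.091 (SE 0.080, adjusted p = 0.580) in KI-FL mice. The KI-571 value was -0.18 (unadjusted p = 0.0902) when only WT replicates 1 to 4 were kept. KI-96 mice had 82.2, 82.3, 64.6 and 84.0 CPM, where the low value is that of replicate 3, and their log2 fold change was -0.057 (SE 0.080, adjusted p = 0.909), or 0.022 without that mouse.

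Hmox1 and Nqo1, which encode the inducible heme oxygenase and the quinone reductase, had few reads and the widest errors. Hmox1 (chromosome 8, 75093621 to 75100589, plus strand) was at 2.83 to 4.44 CPM in WT mice with a median of 3.58, from 48 to 99 counts. It ranged from 1.90 to 4.06 CPM in KI-96, from 2.16 to 4.57 CPM in KI-571 and from 1.67 to 6.59 CPM in KI-FL mice. The lowest and the highest of the 19 mice were both KI-FL mice, replicates 3 and 4. The log2 fold changes of Hmox1 were -0.21 (SE 0.31, adjusted p = 0.912) in KI-96, -0.050 (SE 0.30, adjusted p = 0.998) in KI-571 and 0.044 (SE 0.30, adjusted p = 0.951) in KI-FL mice.

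Nqo1 (chromosome 8, 107388225 to 107403206, minus strand) was at 3.19 to 6.02 CPM in WT mice with a median of 5.27. The KI-571 mice had 7.21, 6.43, 5.59 and 10.6 CPM, of which 3 of 4 were above every WT mouse. The KI-FL mice had 7.90, 5.54, 5.31 and 1.17 CPM, and the last value rests on 18 counts in replicate 4. In KI-96 mice Nqo1 was at 5.84, 3.34, 2.93 and 5.38 CPM. The fitted log2 fold change was 0.56 (SE 0.32, adjusted p = 0.740) in KI-571, -0.21 (SE 0.33, adjusted p = 0.924) in KI-96 and -0.021 (SE 0.33, adjusted p = 0.982) in KI-FL mice, and KI-96 mice were below KI-571 mice by a log2 difference of -0.77 (SE 0.37, unadjusted p = 0.0484, adjusted p = 0.900). The highest Nqo1 values among all mice were those of KI-571 replicate 4 and KI-FL replicate 1, which are among the 3 mice with the highest choroid plexus markers. Without these 3 mice the log2 fold change in KI-571 mice was 0.34 (adjusted p = 0.926).

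Sod1 and Sod2 encode the cytosolic copper-zinc and the mitochondrial manganese superoxide dismutase, which turn superoxide into hydrogen peroxide. Sod1 (chromosome 16, 90220754 to 90226329, plus strand) was at 154 to 189.9 CPM in WT mice with a median of 174. The KI-FL mice had 202, 206, 213 and 187 CPM and the KI-571 mice 177, 182, 192 and 196 CPM. In KI-FL mice 3 of 4 were above every WT mouse, and the log2 fold change was 0.21 (SE 0.13, adjusted p = 0.430), against 0.10 (SE 0.13, adjusted p = 0.960) in KI-571 mice. KI-96 mice had 191, 179, 90.9 and 186 CPM. Their log2 fold change of -0.11 (SE 0.14, adjusted p = 0.892) was set by replicate 3 and was 0.086 without it. KI-96 mice were below KI-FL mice by a log2 difference of -0.32 (SE 0.15, unadjusted p = 0.0475, adjusted p = 0.560), which was -0.11 without replicate 3. Scaf4, which overlaps Sod1 on the other strand, had 610 to 1499 counts.

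Sod2 (chromosome 17, 13006846 to 13040063, plus strand) was at 124 to 185 CPM in WT mice with a median of 140.2. It ranged from 128 to 203 CPM in KI-96, from 121 to 185 CPM in KI-571 and from 124 to 150.4 CPM in KI-FL mice. The highest value was that of KI-96 replicate 3, the mouse with the lowest Sod1. The log2 fold change of Sod2 was 0.13 (SE 0.13, adjusted p = 0.862) in KI-96, -0.030 (SE 0.13, adjusted p = 0.995) in KI-571 and -0.065 (SE 0.13, adjusted p = 0.825) in KI-FL mice.

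Counted over the group, 0 of the 10 genes passed the adjusted threshold of edgeR in KI-96 mice against WT, where 0.027% of all tested genes did. The 5 genes called in KI-96 mice were 4 sex markers and 1 liver marker. In KI-571 mice 0 of 10 passed, against 0.0324% of all genes. In KI-FL mice 0 of 10 passed, against 0.194% of all genes, and with DESeq2 1 of 10 passed, Keap1, against 2.75% of all genes. For the mean of the KI genotypes against WT 0 of 10 passed, against 0.054% of all genes. Between KI genotypes 0 of 10 passed in each of 3 comparisons, where 0.0054% of all genes passed between KI-96 and KI-571, 0% between KI-96 and KI-FL, and 0.0864% between KI-571 and KI-FL mice. An unadjusted p under 0.05 was found for 1 member in KI-96 mice (Gclc, lower), 3 members in KI-571 mice (Txnrd1, higher, Gclc and Srxn1, lower) and 2 members in KI-FL mice (Keap1 and Txnrd1, higher). The shares of all tested genes with such a p were 7.45%, 7.72% and 16.7%. Against the mean of the KI genotypes it was 3 members (Keap1, Txnrd1 and Gclc), with 12.9% of all genes. Between KI genotypes it was 1 member for KI-96 and KI-571 mice (Nqo1), 1 for KI-96 and KI-FL mice (Sod1) and 2 for KI-571 and KI-FL mice (Keap1 and Srxn1), with 5.51%, 8.9% and 8.9% of all genes. The tallies against WT depended on the WT mice used. When only WT replicates 1 to 4 were kept, the unadjusted p of Gclc was 0.0765 (KI-96) and 0.206 (KI-571). That of Txnrd1 was 0.123 and that of Srxn1 0.0902 (both KI-571). For the mean of the KI genotypes Keap1 was at 0.174, Txnrd1 at 0.088 and Gclc at 0.138. Keap1 (0.0209) and Txnrd1 (0.0462) stayed under 0.05 for KI-FL.

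The median log2 fold change of the 10 genes was -0.11 in KI-96, 0.035 in KI-571 and 0.051 in KI-FL mice, beside medians of -0.015, -0.0089 and -0.028 over all tested genes. The group did not move as a block. In KI-FL mice 6 of 10 fold changes were above 0 and 4 below, in KI-571 mice 5 and 5, and in KI-96 mice 3 and 7. Without KI-96 replicate 3, the count in KI-96 mice was 5 and 5 and the median -0.018. The comparisons with WT share the same 7 WT mice, so that a like direction in 2 of them is not independent. In KI-FL mice 9 of 10 astrocyte markers and 10 of 10 oligodendrocyte markers had fold changes below 0, with 0 passing the adjusted threshold of edgeR. With DESeq2 1 astrocyte and 2 oligodendrocyte markers passed, and 3 and 4 had an unadjusted p under 0.05 in edgeR. Of all tested genes in KI-FL mice against WT, 2.75% passed with DESeq2 and 16.7% had such a p. Astrocyte markers summed to 4148 to 4544 CPM in KI-FL mice against 4441 to 5241 CPM in WT mice, and their part in the values of the 10 genes was not tested. Red blood cell markers summed to 163 to 483 CPM in KI-571 mice, 79.5 to 214 CPM in WT mice and 43.5 to 103 CPM in KI-FL mice, and edgeR called 2 of 5 higher in KI-571 than in WT mice and 4 of 5 higher than in KI-FL mice. Over all tested genes 0.0324% and 0.0864% were called in these comparisons. Of 5 tested liver markers 1 was called higher in each KI genotype against WT, with sums of at most 39.8 CPM. The shares of all tested genes called there were 0.027% in KI-96, 0.0324% in KI-571 and 0.194% in KI-FL mice. Cortical neuron markers summed to 1115 CPM in WT replicate 3 and to 70.01 to 127 CPM in the other WT mice. The part of these cells in the values of the 10 genes was likewise not tested.

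**Figure D3:**
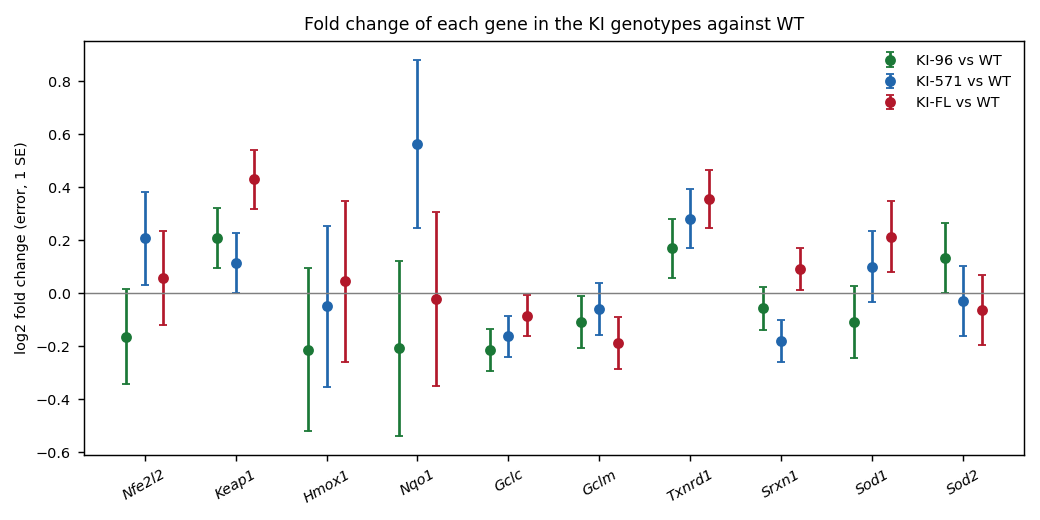
Log2 fold changes of the 10 genes against WT are plotted for the 3 KI genotypes, with error bars of 1 SE from edgeR's quasi-likelihood fit (4 mice against 7). Keap1 and Txnrd1 have points above 0 and Gclc and Gclm points below 0 in all 3 genotypes, and none passes the adjusted threshold. The 3 comparisons share the same 7 WT mice. With WT replicates 1 to 4 only, the KI-571 values were 0.014 for Keap1 and 0.0077 for Gclm.

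For each gene, the other tested gene with the most similar log2 CPM over the 19 mice was found, as a description across mice that share a genotype or library quality. For Keap1 this was Tfip11 (Pearson r = 0.90, Spearman rho = 0.95), and for Txnrd1 it was Hspa2 (r = 0.88, rho = 0.86). Sod1 was most like Atp5g3 (r = 0.94, rho = 0.76) and Sod2 most like Hnrnpd (r = 0.91, rho = 0.77). For Gclc it was Rwdd4a (r = 0.87), for Gclm Elmod2 (r = 0.89), for Srxn1 Syngr3 (r = 0.83), for Nqo1 Sgms2 (r = 0.89), for Hmox1 Trp53 (r = 0.81) and for Nfe2l2 Cd164 (r = 0.82). None of the 10 genes was the gene most like another of the 10.

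The wider antioxidant response was read from 7 lists with 102 further genes, of which 96 were tested and 6 were too low (Gsta1, Gsta2, Gstm3, Gstp2, Mgst2 and Gpx2). In edgeR 0 of 96 passed the adjusted threshold in any of the 7 comparisons. An unadjusted p under 0.05 was found for 2 higher and 2 lower genes in KI-96 mice, for 7 higher and 4 lower genes in KI-571 mice, and for 10 higher and 4 lower genes in KI-FL mice. Of all tested genes 4.36% were higher and 3.09% lower by this measure in KI-96, 3.89% and 3.83% in KI-571, and 7.89% and 8.84% in KI-FL mice. With DESeq2, Ephx1 and Ftl1 passed in KI-571 mice, where 0.621% of all tested genes did, and Ftl1 passed in KI-FL mice, where 2.75% did, and for all KI mice, where 1.54% did. The median log2 fold change of the 96 genes was -0.063, 0.076 and 0.031 in these genotypes.

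Ftl1, the light chain of the iron store ferritin, had the smallest p of the 96 genes in KI-FL mice. It was at 17.8 to 30.04 CPM in WT mice with a median of 23.4, and at 36.6, 50.2, 56.2 and 39.2 CPM in the KI-FL mice. Every KI-FL mouse was above every WT mouse, as in 2.9% of all tested genes. The log2 fold change was 0.97 (SE 0.23, adjusted p = 0.0605 from edgeR and 0.00668 from DESeq2). In KI-571 mice Ftl1 was at 36.7, 56.7, 51.5 and 25.9 CPM, with a log2 fold change of 0.88 (SE 0.22, adjusted p = 0.170 from edgeR and 0.0274 from DESeq2). In KI-96 mice it was at 34.99, 51.1, 17.2 and 37.1 CPM, with a log2 fold change of 0.59 (SE 0.23, adjusted p = 0.629). The lowest of all mice was KI-96 replicate 3, and without this mouse Ftl1 passed edgeR's adjusted threshold in KI-FL mice (0.96, adjusted p = 0.0210) and for all KI mice (0.88, adjusted p = 0.0103). This mouse was singled out after its values were seen. Without it 159 and 173 of 18746 tested genes passed in these comparisons, against 36 and 10 in the main fit. With WT replicates 1 to 4 only, with Xist in the fit or with the replicate number as a block, 0 genes passed in either. Ftl1 has 2 named pseudogenes, between which its reads may have been split, so that its level is uncertain.

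Ephx1, the microsomal epoxide hydrolase, was at 21.8 to 34.0 CPM in WT mice with a median of 30.5, and at 38.7, 50.6, 35.9 and 58.5 CPM in KI-571 mice. Every KI-571 mouse was above every WT mouse, with 0.88% of all tested genes higher in the same way. The fitted log2 fold change was 0.69 (SE 0.15, adjusted p = 0.0959 from edgeR and 0.00734 from DESeq2). Ephx1, Sod3, the extracellular superoxide dismutase, and Gstm2, a glutathione S-transferase, were each highest in the same 3 of 19 mice, KI-571 replicates 2 and 4 and KI-FL replicate 1, which are the mice with the highest choroid plexus markers. Sod3 was at 17.0, 19.2 and 17.9 CPM in these mice and at 5.002 to 10.2 CPM in WT mice. Without these 3 mice the log2 fold change in KI-571 mice fell from 0.69 to 0.38 for Ephx1, from 0.81 to 0.18 for Sod3 and from 1.28 to 0.28 for Gstm2, and in KI-FL mice that of Sod3 went from 0.81 to 0.62. For Ftl1 the value without them was 0.92 in KI-571 and 1.05 in KI-FL mice.

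Among the 15 regulators and partners of NRF2, 13 had fold changes above 0 in KI-FL mice with a median of 0.12, 12 in KI-571 mice with a median of 0.097, and 12 in KI-96 mice with a median of 0.062. Mafk, a small MAF partner of NRF2, had a log2 fold change of 0.31 (SE 0.13, adjusted p = 0.232) in KI-FL mice. Btrc, a ubiquitin ligase adaptor that acts on NRF2 apart from KEAP1, had 0.35 (SE 0.12, adjusted p = 0.582) in KI-96 mice, and Nfe2l3, a relative of Nfe2l2, had -0.48 (SE 0.21, adjusted p = 0.577) in KI-571 mice.

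In the glutathione list of 15 genes the median log2 fold change was 0.0086 in KI-96, -0.047 in KI-571 and -0.059 in KI-FL mice. Slc7a11, the cystine carrier, had -0.34 (SE 0.14, adjusted p = 0.523) in KI-571 mice. Abcc1, an exporter of glutathione conjugates, had 0.25 (SE 0.098, adjusted p = 0.206) in KI-FL mice, and its 4 KI-FL mice were all above WT, as in 2.9% of all tested genes. Gsr, glutathione reductase, had -0.27 (SE 0.12, adjusted p = 0.653) in KI-96 mice.

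Of the 18 tested glutathione S-transferases, 12 had fold changes below 0 in KI-FL mice with a median of -0.22, and 14 in KI-96 mice with a median of -0.15, whereas 13 were above 0 in KI-571 mice with a median of 0.088. KI-571 replicates 2 and 4 had high choroid plexus markers, and their part in this median was not tested. Without them and KI-FL replicate 1, Gstm2, with the smallest p of this list in KI-571 mice, went from 1.28 to 0.28. Mgst3, a membrane-bound member, had -0.54 (SE 0.21, adjusted p = 0.201) in KI-FL mice. Its lowest value was 15.7 CPM in KI-FL replicate 4. Without that mouse and KI-96 replicate 3 the log2 fold change of Mgst3 was -0.38 (adjusted p = 0.328). In the list of peroxidases and other enzymes that remove superoxide or hydrogen peroxide, Sod3 had a log2 fold change of 0.81 (SE 0.27, adjusted p = 0.154) and Prdx1, a peroxiredoxin, -0.33 (SE 0.15, adjusted p = 0.269) in KI-FL mice. In the list of NADPH supply, Me1, malic enzyme, had -0.56 (SE 0.21, adjusted p = 0.454) in KI-571 and -0.46 (SE 0.21, adjusted p = 0.279) in KI-FL mice. In the thioredoxin list of 12 genes none had an unadjusted p under 0.05 in KI-571 or KI-FL mice, and Sesn1, a sestrin, had -0.29 (SE 0.12, adjusted p = 0.636) in KI-96 mice. The smallest p there belonged to Txnip, the thioredoxin inhibitor, at 0.37 (SE 0.22, adjusted p = 0.773) in KI-571 mice and to Txn1, thioredoxin itself, at -0.22 (SE 0.20, adjusted p = 0.591) in KI-FL mice. Idh1, the cytosolic isocitrate dehydrogenase of the NADPH list, had -0.23 (SE 0.11, adjusted p = 0.679) in KI-96 mice.

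**Figure D4:**
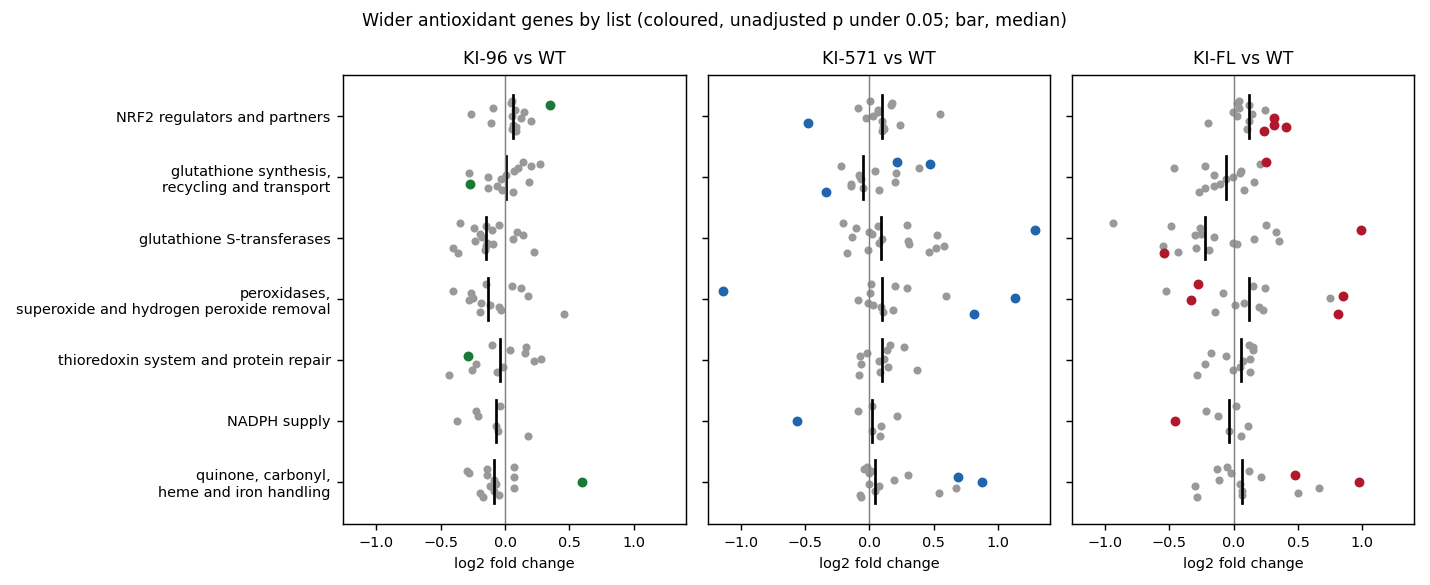
Log2 fold changes against WT are plotted for the 96 tested genes of the 7 wider lists, with a panel for each KI genotype, a row for each list, a black bar at the list median and coloured points for an unadjusted p under 0.05 from edgeR. Medians lie between -0.22 and 0.12, and no gene passes the adjusted threshold.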

How the data were processed

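Striatal RNA sequencing of 19 mice was used. The authors deposited raw counts of reads per gene, after adapter trimming with BBduk, alignment to GRCm38 with STAR and counting with HTSeq. Versions, annotation and strand setting are not given in the sources used here. The 5 HTSeq summary lines and 4 columns of no sample in this series were left out, and 54079 of 54232 identifiers were matched to symbols. Counts were normalized by TMM, filtered with filterByExpr (minimum count 10, minimum total 15) and fitted in 1 model of the 4 genotypes without covariates (edgeR 4.0.16, R 4.3.3). Contrasts were tested by the quasi-likelihood F-test with Benjamini-Hochberg adjustment over all 18521 tested genes. The mean of the 3 KI genotypes was also set against WT. The biological coefficient of variation was 0.240. The study used DESeq2 with a sacrifice batch and removed a WT mouse. Neither is given in the labels, so no batch was fitted and all 7 WT mice were kept. The paper states 4 to 5 mice for each genotype, whereas the labels give 7 WT mice. Whether mice of a genotype shared litters is not stated.

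The members, lists and tests were chosen with earlier results of these data known. Named genes were all members, the gene of each list with the smallest p in each comparison with WT, genes past the adjusted threshold, and the gene most like each member by Pearson r of log2 CPM (prior count 2). Gpx1 was named after its values were seen. Positions and exons are from the GENCODE annotation of GRCm38. Alternatives were DESeq2 1.42.0, its size factors, no filter, a replicate block, a fit with Xist (log2 CPM), WT replicates 1 to 4 only and each mouse left out. The procedure was also run on simulated counts, with the same biological variation for every gene and larger changes than those of the members. The simulated counts held no libraries that stand apart and no differences in sex or choroid plexus. That run therefore does not cover small changes or such features.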

Additional observations from a re-analysis of the deposited data

Results flagged for a closer look

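In 40 groups of mice (10 genes in 4 genotypes), 2 values lay farther from the rest of their group than Dixon's critical value, where chance gives about 1 in 20, or 2. Sod1 in KI-96 replicate 3 was at 90.9 CPM, against 179 to 191 CPM in the other 3 mice. Srxn1 in the same mouse was at 64.6 CPM, against 82.2 to 84.0 CPM in the others. This is the library with 24.2% of its reads outside genes and the highest Sod2 of all mice, and the part of library quality in these values was not tested.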

How the results depend on the processing

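Over 8 other settings and 19 fits without a mouse, the member log2 fold changes mostly kept their direction (527 of the values under other settings and 1291 of those without a mouse), with 31 and 39 reversed. The cause of each change was not tested. The settings without KI-96 replicate 3 and KI-FL replicate 4, and without KI-571 replicates 2 and 4 and KI-FL replicate 1, were chosen after seeing the data. No member was called with any mouse left out (0 to 0). DESeq2 called 1 member (Keap1 in KI-FL), and leaving out KI-96 replicate 3 and KI-FL replicate 4 called 1 (Txnrd1 for all KI mice). DESeq2's size factors in edgeR moved no count by over 1.5 times.

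Of the 96 listed genes, DESeq2 called 2 in KI-571, 1 in KI-FL and 1 for all KI mice, as did the fit without a filter on low counts (2, 1 and 1). Without KI-96 replicate 3 and KI-FL replicate 4 these were 2, 1 and 3, the last being Ftl1, Sod3 and Gpx1. With a mouse left out they were 0 to 1 in each.

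Over all tested genes 5, 6, 36 and 10 passed against WT (KI-96, KI-571, KI-FL, all KI) and 1, 0 and 16 between KI-96 and KI-571, KI-96 and KI-FL, and KI-571 and KI-FL. In the same order DESeq2 gave 28, 115, 509, 285, 35, 38 and 88, and no filter gave 23, 78, 85, 140, 35, 24 and 25. With WT replicates 1 to 4 only, 0, 0, 0 and 0 passed against WT, 2 between KI-96 and KI-571 and 10 between KI-571 and KI-FL. With Xist in the fit 0 passed in KI-96, KI-FL and all KI against WT and 0 between KI-96 and KI-571. Without KI-96 replicate 3 and KI-FL replicate 4, 91 passed in KI-571, 90 in KI-FL and 277 for all KI, 0 between KI-96 and KI-571 and 1 between KI-571 and KI-FL. Without KI-571 replicates 2 and 4 and KI-FL replicate 1, 1, 0, 0 and 32 passed against WT, 0 between KI-96 and KI-571 and 0 between KI-571 and KI-FL. With a mouse left out the ranges were 1 to 10, 0 to 46, 0 to 159, 3 to 173, 0 to 5, 0 to 9 and 1 to 21.

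Mice with the same replicate number did not deviate together (24 pairs, r from -0.128 to 0.290), so no pairing by replicate number was seen. A shared litter or sacrifice batch was not tested by this check. With the replicate number as a block 0, 1, 0, 0, 0, 1 and 9 genes passed and no member did, and WT replicates 5 to 7, with numbers of their own, add nothing there. The block reversed Hmox1 (-0.11) and Nqo1 (0.094) in KI-FL, and Gclm (0.0051) and Sod2 (0.013) in KI-571 mice.

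Reversed log2 fold changes with WT replicates 1 to 4 only were Hmox1 -0.030 and Nqo1 0.079 in KI-FL, and Gclm 0.0077 and Sod2 0.029 in KI-571 mice. With Xist in the fit they were Nqo1 0.010 in KI-FL, Sod1 0.0070 in KI-96, Sod2 -0.0070 for all KI and Gclc 0.035 between KI-96 and KI-571. No filter gave Sod2 -0.0099 for all KI. Without KI-96 replicate 3 and KI-FL replicate 4 they were Hmox1 -0.40 and Nqo1 0.30 in KI-FL, Srxn1 0.023 and Sod1 0.087 in KI-96, Sod2 -0.016 for all KI, Hmox1 0.013 between KI-96 and KI-571, Hmox1 0.36 and Gclm -0.0021 between KI-96 and KI-FL, and Hmox1 0.35 and Sod2 -0.016 between KI-571 and KI-FL. Without KI-571 replicates 2 and 4 and KI-FL replicate 1 they were Nfe2l2 -0.043 in KI-FL, Sod2 0.099 in KI-571, Nfe2l2 -0.056 and Nqo1 -0.074 for all KI, Keap1 -0.010 and Hmox1 0.25 between KI-96 and KI-571, Nqo1 0.13 between KI-96 and KI-FL, and Txnrd1 0.031 between KI-571 and KI-FL.

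With a mouse left out, log2 fold changes that changed sign ranged in KI-96 from -0.20 to 0.086 (Sod1) and -0.095 to 0.022 (Srxn1), in KI-571 from -0.21 to 0.12 (Hmox1) and -0.18 to 0.045 (Sod2), and in KI-FL from -0.34 to 0.30 (Nqo1), -0.39 to 0.28 (Hmox1) and -0.042 to 0.22 (Nfe2l2). For all KI they ranged from -0.22 to 0.0064 (Hmox1), -0.040 to 0.073 (Sod2) and -0.036 to 0.10 (Nfe2l2). Between KI-96 and KI-571 they ranged from -0.0035 to 0.20 (Keap1), -0.34 to 0.014 (Hmox1) and -0.11 to 0.035 (Gclm), between KI-96 and KI-FL from -0.51 to 0.13 (Nqo1) and -0.50 to 0.18 (Hmox1), and between KI-571 and KI-FL from -0.33 to 0.34 (Hmox1), -0.10 to 0.11 (Sod2) and -0.010 to 0.25 (Nfe2l2). Hmox1 rested on 33 to 101 counts a mouse, with SEs of 0.30 to 0.31 against WT.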
